A study of Mus musculus with 2 samples.

Results

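Nascent transcription of 10 genes that encode enzymes of glycolysis was examined in mouse bone marrow-derived macrophages (BMDMs) by global run-on sequencing (GRO-seq), an assay in which engaged RNA polymerases extend labelled RNA in isolated nuclei. The genes were Hk1, Hk2, Hk3, Pfkl, Pfkp, Aldoa, Gapdh, Pgk1, Pkm and Ldha, and their transcripts were taken by the gene name that each called transcript carries in the files. BMDMs came from wild-type mice of 8 to 12 weeks on the C57BL/6 background and were differentiated for 6 days with L929 supernatant, the source of MCSF, so that both groups had the same growth factor. The control cells received no IL-4, and the other cells received 20 ng/ml IL-4 for 1 hr. Run-on reactions were made in duplicate and pooled, so that each condition is 1 library. No value below has a replicate, and no test between the conditions was possible.

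Of the 10 genes, 9 had named transcripts in both libraries, and Pgk1 had none in either. The 9 genes carried 44 of 43122 called transcripts in control and 51 of 51365 after IL-4. Altogether 11054 genes were named in the series. Each transcript has a score that the authors deposited with 1 decimal. The sources used here do not say how it is scaled, and the sequencing depth is unknown.

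The labelled cell type was checked against marker genes. All 10 macrophage markers were named in each library, with highest scores from 0.5 to 7.1 in control and from 0.5 to 7.3 after IL-4 (sums 30.2 and 28.9). None of the 5 fibroblast and 3 epithelial markers was named. In each library 1 of 4 T cell markers, 1 of 3 B cell markers and 2 of 5 neutrophil markers carried a name, with summed highest scores of 0.6, 0.4 and 1.1 in control and 0.8, 0.4 and 0.5 after IL-4. The part of such cells in the values below was not tested, and in a bulk library fewer cells of a type and less nascent RNA per cell cannot be told apart.

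Glycolysis converts glucose to pyruvate in the cytosol and yields ATP and NADH. Its flux is set mainly at the hexokinase, phosphofructokinase and pyruvate kinase steps, and lactate dehydrogenase turns pyruvate into lactate. In macrophages, high glycolytic flux is known as a feature of inflammatory activation, whereas alternative activation by IL-4 is known for its reliance on mitochondrial oxidation.

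A gene's value is the highest score among its named transcripts. The ratio of IL-4 over control was taken on the log2 scale (log2 ratio) and centred on the median of the 8879 genes with a value in both libraries, which was -0.38 before centring. Where another definition of the gene value is used below, its ratio was centred on the median over all genes under that definition. Since the scores are rounded, each ratio of single scores is followed in parentheses by the range that this rounding allows, which is not a replicate error. A gene was counted as changed at 2-fold after centring.

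**Figure D1:**
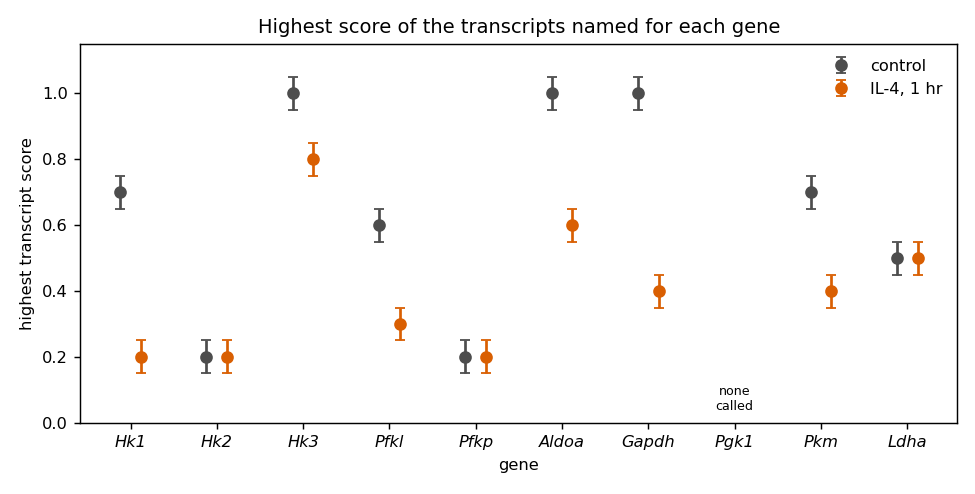
Highest score of the transcripts named for each gene (vertical axis, score as deposited) in control (grey) and after 1 hr of IL-4 (orange), 1 library each; bars show the rounding of the score. Hk1, Hk3, Pfkl, Aldoa, Gapdh and Pkm had a lower printed score after IL-4, Hk2, Pfkp and Ldha had the same printed score, and Pgk1 had no called transcript.

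Hexokinases phosphorylate glucose and so hold it in the cell. Hk1 (ENSMUSG00000037012.18, GRCm38 chromosome 10, 62268855 to 62379908, minus strand) encodes the widely expressed hexokinase. Its highest score of 0.7 in control compared with 0.2 after IL-4, and its log2 ratio was -1.43 (-1.94 to -1.0). It was the only one of the 9 genes past 2-fold, at 2.69-fold lower. Its highest control score belonged to a short transcript of 53 bp within intron 4 (62328126 to 62328178) with no overlapping IL-4 transcript on that strand. Short transcripts had high scores in general. In control the 4578 transcripts of up to 100 bp had a median score of 0.5, against 0.2 for longer ones. After IL-4, 4 transcripts lay on the gene strand inside Hk1, each with a score of 0.2, while control had 2. Repeat sequence was named at 2 of those after IL-4 and at 1 of those in control. The summed score of its named transcripts was 1.0 in both libraries. Score times length, summed over the transcripts on the gene strand, was 107.6 in control and 212.6 after IL-4 (log2 ratio 0.84). The direction for Hk1 therefore differed between the definitions of its value.

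Hk2 (ENSMUSG00000000628.10, chromosome 6, 82725025 to 82774454, minus strand), the hexokinase known to be induced by insulin and hypoxia, had a highest score of 0.2 in both libraries (centred log2 ratio 0.38, rounding range -0.36 to 1.12). In control that value lay in an intergenic transcript far upstream, at -49966 bp from the start site, and inside the gene there was a single transcript with a score of 0.1 over the first exon. After IL-4 there were 3 transcripts inside the gene, over the first exon (0.1), 1064 bp into the gene (0.1) and 10479 bp into it (0.2). On the gene strand the highest score was thus 0.1 in control and 0.2 after IL-4. The log2 ratio was 1.35, with a rounding range of 0.35 to 2.67 that is wide because both scores are near the lowest printed value. Score times length was 27.6 and 94.4 (log2 ratio 1.64), and Hk2 was the only member at least 2-fold higher by that measure.

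Hk3 (ENSMUSG00000025877.14, chromosome 13, 55005985 to 55021385, minus strand) encodes a hexokinase found mainly in myeloid cells. It carried the most transcripts of the group by name, 17 (control) and 21 (IL-4). Its highest score was 1.0 in control and 0.8 after IL-4 (centred log2 ratio 0.06, rounding range -0.11 to 0.22). The score of 0.8 belonged to a 60 bp transcript outside the gene, at -38475 bp from the Hk3 start site and within intron 8 of the neighbouring gene Uimc1, where control also had a score of 0.8. Inside Hk3 the highest scores were 1.0 and 0.6, in overlapping transcripts, annotated to intron 15 in control and to exon 16 after IL-4 (centred log2 ratio -0.39, -0.59 to -0.20). At that place the transcript was 134 bp long in control and 646 bp after IL-4. Transcripts inside Hk3 numbered 12 in control and 15 after IL-4 and covered 27.4% and 44.3% of the gene. Their mean score per covered base was 0.251 and 0.281.

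The phosphofructokinases catalyse the committed step of glycolysis, and Pfkl and Pfkp are its liver and platelet type subunits. Pfkl (ENSMUSG00000020277.10, chromosome 10, 77986947 to 78010083, minus strand) had 1 named transcript in each library, in exon 1 at the same place, with scores of 0.6 and 0.3. The centred log2 ratio was -0.62 (rounding range -1.0 to -0.27). A second control transcript on the gene strand, in intron 11 with a score of 0.3, carried the name of the neighbouring gene 1810043G02Rik and had no IL-4 counterpart. With it, score times length was 131.7 in control and 46.5 after IL-4 (log2 ratio -1.64). Pfkl was the only member at least 2-fold lower by that measure. It was also the only one of the 9 genes with less of its length covered after IL-4 (279 bp and 155 bp).

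Pfkp (ENSMUSG00000021196.14, chromosome 13, 6579768 to 6648777, minus strand) had 1 named transcript in each library, which began 100 bp after the start site in both and had a score of 0.2 in both (centred log2 ratio 0.38, -0.36 to 1.12). In intron 16 a further transcript on the gene strand had a score of 0.6 in both libraries and carried the name of the neighbour Pitrm1. By the highest score on the gene strand, Pfkp had a centred log2 ratio of 0.35 (0.11 to 0.59).

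Aldoa (ENSMUSG00000030695.16, chromosome 7, 126795234 to 126800751, minus strand) encodes aldolase A, which cleaves fructose bisphosphate. Its highest score was 1.0 in control and 0.6 after IL-4, or -0.36 (rounding range -0.55 to -0.17). Both values came from a transcript that began at the same RefSeq start site, at 126799178 in control and 126799179 after IL-4, and that was 638 bp long in control and 978 bp after IL-4. Score times length on the gene strand was 755.0 and 758.1 (log2 ratio -0.13).

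Gapdh (ENSMUSG00000057666.18, chromosome 6, 125161715 to 125166467, minus strand) encodes glyceraldehyde 3-phosphate dehydrogenase, which makes NADH. The highest score was 1.0 in control and 0.4 after IL-4. The centred log2 ratio of -0.94 (rounding range -1.21 to -0.70) was short of 2-fold, and the range included it. These scores belonged to overlapping transcripts, 228 bp long in control (125165350 to 125165577) and 840 bp after IL-4 (125164745 to 125165584). Score times length on the gene strand was 251.2 in control and 375.1 after IL-4 (log2 ratio 0.44). The score of Gapdh was lower after IL-4 while its called stretch was longer, and the direction depended on which was counted. As background, Gapdh has processed pseudogenes, and how reads shared with such copies were placed is not given in the sources used here.

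Pgk1 (ENSMUSG00000062070.12, chromosome X, 106187100 to 106203699, plus strand) encodes phosphoglycerate kinase, which makes ATP. No transcript was called inside it in either library. This places it below what the caller detected at an unknown depth and does not show that it was silent.

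Pkm (ENSMUSG00000032294.17, chromosome 9, 59656368 to 59679375, plus strand) encodes the muscle type pyruvate kinase, which forms pyruvate. Its highest score was 0.7 in control and 0.4 after IL-4, or -0.43 (rounding range -0.72 to -0.15). On the gene strand, 7 transcripts in control and 6 after IL-4 lay inside the gene, and score times length was 667.7 and 822.0 (log2 ratio 0.16). The control transcript with the highest score covered exon 9 of the transcript Pkm-202. After IL-4 the highest score was shared by a transcript over that exon and the next one downstream. Pkm is known for a pair of alternative exons of equal length that distinguish PKM1 from PKM2, of which Pkm-202 holds the PKM1 exon and Pkm-201 the PKM2 exon. The exon of Pkm-202 (59675029 to 59675195) lay wholly within a called transcript in both libraries, with scores of 0.7 and 0.4. The exon of Pkm-201 (59675568 to 59675734) lay wholly within a transcript of score 0.4 after IL-4. In control the nearest transcript, of score 0.4, ended at 59675562, just before it. Nascent RNA holds both exons before splicing, so these scores do not measure the choice between them. The exons, from GENCODE M21 on GRCm38, are shown because the highest Pkm scores lay on and beside them. They are 167 bases long and identical at 103 positions (61.7%), and capitals mark the 64 positions at which they differ:
Pkm-202 exon 9: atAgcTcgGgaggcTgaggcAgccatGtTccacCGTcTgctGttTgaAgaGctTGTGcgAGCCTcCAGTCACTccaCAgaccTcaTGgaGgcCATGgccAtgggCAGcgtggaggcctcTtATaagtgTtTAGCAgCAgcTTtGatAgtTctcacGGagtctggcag
Pkm-201 exon 9: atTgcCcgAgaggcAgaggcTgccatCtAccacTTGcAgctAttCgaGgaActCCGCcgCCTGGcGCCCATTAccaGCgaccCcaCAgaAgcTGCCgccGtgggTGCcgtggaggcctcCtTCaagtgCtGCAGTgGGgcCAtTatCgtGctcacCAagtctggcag

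Ldha (ENSMUSG00000063229.15, chromosome 7, 46841475 to 46855627, plus strand) encodes the A subunit of lactate dehydrogenase. Its highest score was 0.5 in both libraries, from a transcript that began 44 bp after a RefSeq start site in control and 19 bp after it in the IL-4 library (centred log2 ratio 0.38, rounding range 0.09 to 0.67). Score times length on the gene strand was 267.0 in control and 570.1 after IL-4 (log2 ratio 0.96). After IL-4, 3 transcripts lay inside the gene, and in control 2. Ldha lay lower after IL-4 under 1 of the definitions centred on the median, the transcript nearest the TSS. By that definition the IL-4 value of 0.2 came from another transcript than the control value of 0.5.

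Taking the 9 genes as a list, 1 (Hk1) was at least 2-fold lower by the highest score and none was at least 2-fold higher. Over all 8879 genes, 8.62% were at least 2-fold lower and 8.06% at least 2-fold higher, so a count of 1 in 9 is near the background. Of the 9 genes, 5 had a centred ratio below 0 (Hk1, Pfkl, Aldoa, Gapdh and Pkm) and 4 above it, with a median of -0.36, against 0 for all genes. The 4 genes lay above 0 through the centring, since none had a higher printed score after IL-4. By the highest score of transcripts on the gene strand, 1 gene was lower (Hk1; 8.43% of 8165 genes) and 1 higher (Hk2; 8.25%). By score times length on the gene strand, 1 gene was lower (Pfkl; 16.6%) and 1 higher (Hk2; 16.7%). By that measure 7 genes lay above 0 and 2 below it, and the median was 0.71, against 0 for all genes. With the summed score by name, which takes no length, the median was 0.29. The sign of the list's median thus depended on the definition of the gene value.

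**Figure D2:**
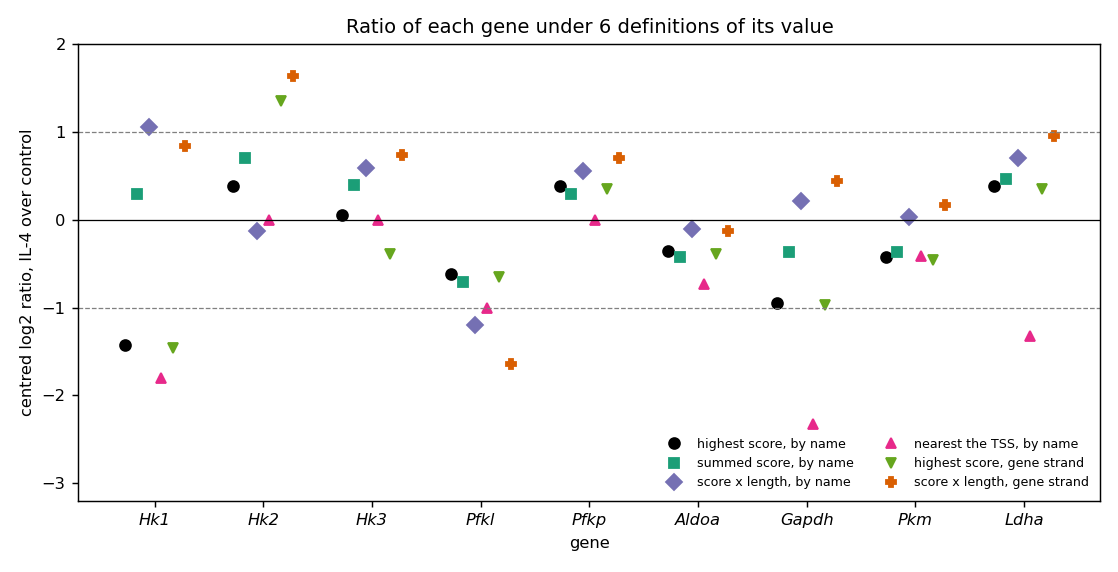
Centred log2 ratio of IL-4 over control (vertical axis) for the 9 genes under 6 definitions of the gene value; dashed lines mark 2-fold. Pfkl and Aldoa lie below 0 under all 6, whereas Hk1 and Gapdh lie below 0 by the highest score and above it by score times length.

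The called stretch of these genes was longer after IL-4. On the gene strand, transcripts covered 9254 bp of the 10 genes in control and 16984 bp after IL-4, a ratio of 1.84. Over all transcripts of the libraries the summed length had a ratio of 1.71, so that longer calls after IL-4 were a feature of the whole series. Score times length summed over the genes, on the gene strand and inside them, was 3347.2 in control and 4940.2 after IL-4 (ratio 1.48). Over all transcripts other than those named Rn45s or on the mitochondrial genome the ratio was 1.06. The latter sum also holds transcripts outside genes and on opposite strands, so these ratios are over unlike sets. The largest gain in the sum over the genes was that of Hk3, from 1058.4 to 1920.4. Aldoa was nearly the same in both libraries (755.0 and 758.1), and only Pfkl was lower after IL-4 (131.7 and 46.5). Coverage was higher after IL-4 in 8 of the 9 genes. The share of all genes with higher coverage was not computed, so this count does not set the genes apart from the series. Coverage was 18.6% and 35.8% for Aldoa, 9.68% and 25.9% for Gapdh, 7.51% and 12.4% for Pkm, and 5.10% and 11.9% for Ldha. Hk1, Hk2, Pfkl and Pfkp were covered over less than 2% of their length in both libraries.

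**Figure D3:**
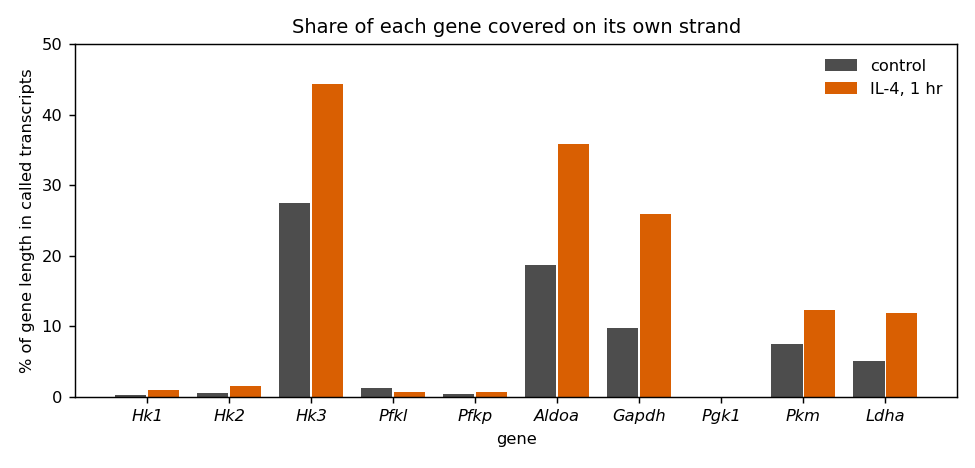
Percent of each gene's length that lay in called transcripts on its own strand (vertical axis) in control (grey) and after 1 hr of IL-4 (orange), 1 library each. Hk3 stands highest, with 27.4% and 44.3%, and Pfkl is the gene with the smaller share after IL-4.

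Per kb of gene, score times length on the gene strand was highest for Aldoa in control (136.8) and also in the IL-4 library (137.4). In control Hk3 (68.7), Gapdh (52.9), Pkm (29.0) and Ldha (18.9) followed, and after IL-4 Hk3 (124.7), Gapdh (78.9), Ldha (40.3) and Pkm (35.5). Pfkl (5.69 and 2.01), Pfkp (1.17 and 2.11), Hk1 (0.969 and 1.91) and Hk2 (0.558 and 1.91) were far lower. With no replicates, whether neighbours in this order differ cannot be said. Hk3 and the genes from Aldoa to Ldha, other than Pgk1, had the most called transcription for their length, and the other hexokinases and both phosphofructokinases were called at few places.

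Transcripts were then compared place by place. Of 33 control transcripts on the gene strand inside the genes, 26 overlapped an IL-4 transcript, and of 39 IL-4 transcripts 25 overlapped a control transcript. Over the whole control library, 26998 of 43122 transcripts overlapped an IL-4 transcript. The share of all IL-4 transcripts with a control counterpart was not computed. The printed score was lower after IL-4 in 12 of the 26 pairs, equal in 7 and higher in 7. Centred on all 26998 matched pairs of the series, 12 pairs lay below 0 and 14 above it, with a median log2 ratio of 0.32 (0 for all pairs). Scores in steps of 0.1 leave few possible ratios, and equal scores give this value. The IL-4 transcript was longer in 23 of the 26 pairs, with a median length of 574 bp against 234 bp. Over all transcripts of the libraries, matched or not, the median was 312 bp after IL-4 and 227 bp in control. Lengths over all matched pairs were not computed, so this count does not set the genes apart from the series. The same 978 bp IL-4 transcript of Aldoa entered pairs with different control transcripts. Hk3 gave 10 of the pairs. There the score went from 0.2 to 0.4 over exon 10, from 0.1 to 0.2 over exon 3 and from 0.3 to 0.4 in intron 1, and it went from 0.3 to 0.1 over exon 8 and from 0.6 to 0.4 in another part of intron 1. Within this gene the IL-4 score was thus higher at some places and lower at others.

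**Figure D4:**
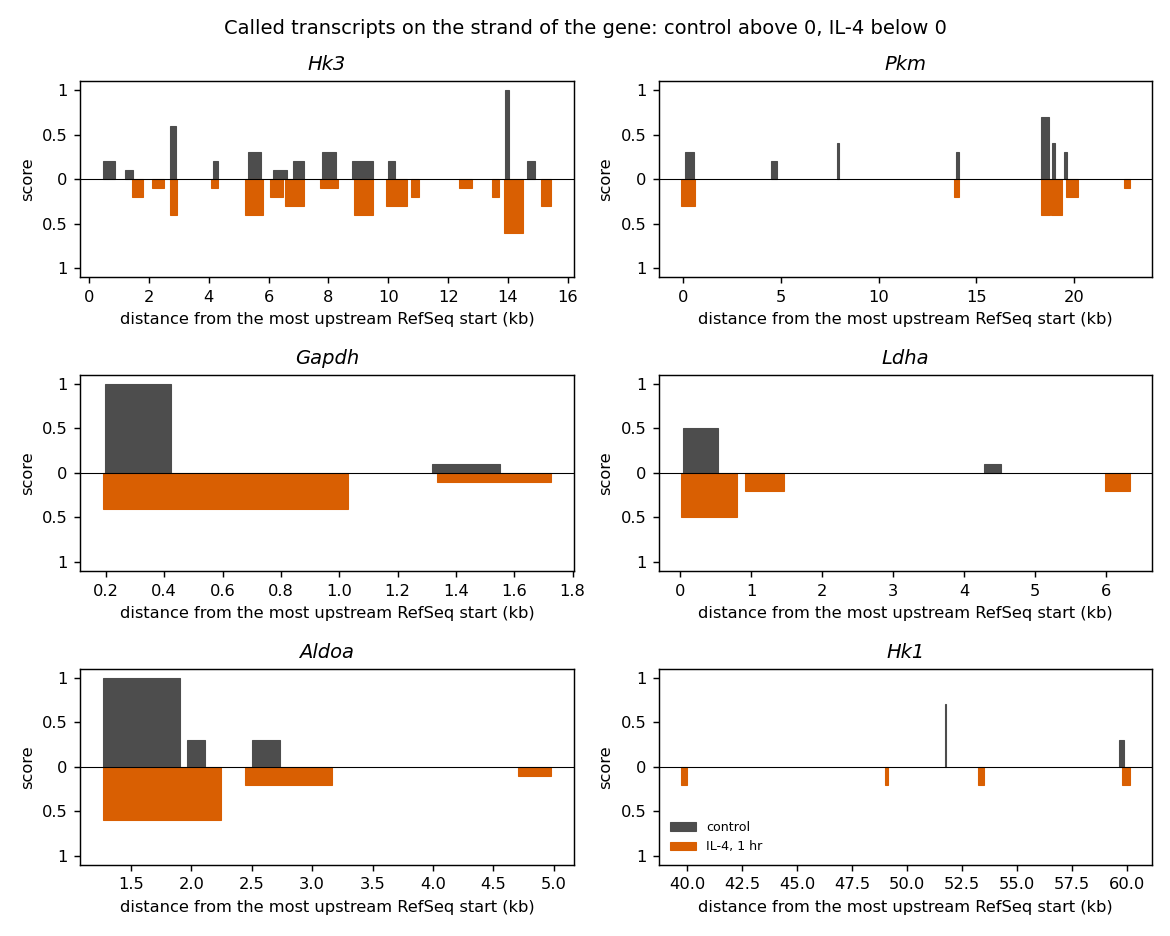
Called transcripts on the gene strand inside 6 of the genes, as bars at their distance from the most upstream RefSeq start (horizontal axis, kb) with the score as bar height, control above the line and IL-4 below it. Near the start of Gapdh, and at a downstream start site of Aldoa (1269 bp along the axis in control), the control bar is taller (1.0 in both genes). The IL-4 bar is longer at both places. Near the start of Ldha both bars reach 0.5.

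Transcription near the start was examined within 1 kb of the RefSeq start sites. A transcript on the gene strand began there in both libraries for 7 of the 10 genes: Hk2, Pfkl, Pfkp, Aldoa, Gapdh, Pkm and Ldha. Hk1 had one after IL-4 (score 0.2, 255 bp after its downstream start site) and none in control, and Hk3 had one in control (score 0.2, 457 bp after the start) and none after IL-4. At Pfkl the 5′ ends lay 64 bp after the start site in control and 63 bp after it in the IL-4 library. At Hk2 they lay 44 and 27 bp after it, and at Gapdh 196 and 189 bp. Transcription on the opposite strand within the same window was called at 3 genes in control (Hk1, Aldoa and Pkm) and 4 after IL-4 (also Gapdh, with scores of 0.2 and 0.1). At Pkm the scores of this divergent transcript were 0.4 and 0.3, and at Aldoa 0.2 and 0.3. The shares of all genes with a transcript near the start, on either strand, were not computed. These counts therefore do not set the genes apart from the series.

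The upstream sequences of 4 genes are shown as examples. Transcripts began within 1 kb of the start site in both libraries (Ldha and Hk2), in control but not after IL-4 (Hk3) or in neither (Pgk1). Other genes had such transcripts in both libraries too. All 4 genes shown hold the letters ACGTG, which the windows of Hk1, Pfkl, Pfkp and Gapdh lack. Each sequence is the run of 250 bases before the start site on the strand of the gene, from RefSeq on GRCm38.p6. Capitals mark the letters ACGTG on either strand, a form of the core of the element bound by hypoxia-inducible factors. The other form, GCGTG, was not searched, and a window of each of Hk1, Pfkl, Pfkp and Gapdh holds it. Capitals also mark the palindrome TTC and GAA with 4 bases between them, known as the STAT6 motif. A match to CACGTG, the E-box, also holds ACGTG on both strands:
Ldha, chr7:46845554-46845803, plus strand: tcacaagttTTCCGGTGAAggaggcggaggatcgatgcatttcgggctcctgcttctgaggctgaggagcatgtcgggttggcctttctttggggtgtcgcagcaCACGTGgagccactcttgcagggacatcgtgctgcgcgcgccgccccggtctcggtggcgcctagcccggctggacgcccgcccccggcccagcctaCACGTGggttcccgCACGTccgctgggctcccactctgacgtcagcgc
Hk2, chr6:82774455-82774704, minus strand: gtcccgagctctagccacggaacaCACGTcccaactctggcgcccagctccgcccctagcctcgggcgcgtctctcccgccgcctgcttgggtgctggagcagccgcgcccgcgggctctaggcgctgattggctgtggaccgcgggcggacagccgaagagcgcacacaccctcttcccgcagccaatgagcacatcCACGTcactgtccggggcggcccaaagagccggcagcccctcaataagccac
Hk3, chr13:55021386-55021635, minus strand: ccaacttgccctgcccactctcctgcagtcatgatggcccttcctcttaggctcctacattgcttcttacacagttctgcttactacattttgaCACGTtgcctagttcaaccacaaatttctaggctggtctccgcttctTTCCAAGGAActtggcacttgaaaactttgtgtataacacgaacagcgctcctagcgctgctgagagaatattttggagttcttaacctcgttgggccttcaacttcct
Pgk1, chrX:106186850-106187099, plus strand: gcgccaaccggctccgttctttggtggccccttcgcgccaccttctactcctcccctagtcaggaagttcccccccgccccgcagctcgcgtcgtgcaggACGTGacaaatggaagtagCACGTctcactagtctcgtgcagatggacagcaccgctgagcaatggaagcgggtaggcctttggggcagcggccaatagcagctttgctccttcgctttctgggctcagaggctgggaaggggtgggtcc

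Over all RefSeq start sites of the 10 genes, 7 of 15 upstream sequences held ACGTG, in the genes Hk2, Hk3, Aldoa, Pgk1, Pkm and Ldha, against 16.6% of all 32851 such sequences. Matches to this STAT6 motif were found in 2 of 15 (Hk3 and Ldha; 5.85% of all) and to CACGTG in 1 of 15 (Ldha; 6.02% of all). The same palindrome with 3 bases between (7.02% of all) and TATAAA (12.4% of all) were in none of the 15. GGGCGG was found in 7 of 15 (32.7% of all) and CCAAT in 6 of 15 (33.8% of all), both strands searched. The windows of 2 Aldoa start sites share 174 bases, and the same matches to ACGTG, the GC box (GGGCGG) and the CCAAT box were counted in both. Each of these 3 counts thus holds 1 repeated window. The windows of the 10 genes were mostly GC-rich, with 12 of 15 above the median of all windows (52.4%) and a range of 47.2% to 69.6%. The shares over all windows were not matched for this, so whether the counts set these genes apart was not tested. These matches describe letters in the window and not binding.

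Other genes of the pathway were taken from a list of 40, which held glucose and lactate transporters, the remaining enzymes and isozymes, enzymes that set fructose 2,6-bisphosphate, genes of pyruvate entry into mitochondria, gluconeogenic genes and Hif1a. By name 26 of the 40 had a transcript, 21 of them in both libraries. At least 2-fold lower were 2 (Pfkfb3 and Tpi1) and at least 2-fold higher 1 (Slc2a1), 11 lay above 0 and 10 below it, and the median was 0.06. Over all genes 8.62% were lower and 8.06% higher by this measure, so these counts in 21 genes are near the background. Of these 21, 6 had no value on the strand of the gene in at least 1 library. On the gene strand 15 genes had a value in both libraries, of which 3 were at least 2-fold higher (Slc2a1, Hif1a and Eno1) and 2 at least 2-fold lower (Pfkfb3 and Tpi1). The shares over all genes were 8.25% higher and 8.43% lower. Both counts lay above these shares, and whether so few calls set the 15 genes apart was not tested. Slc2a1, Hif1a, Eno1 and Adpgk were named after their values were seen.

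Pfkfb3, whose product makes fructose 2,6-bisphosphate, the strong activator of phosphofructokinase, had 22 named transcripts in control and 4 after IL-4. Its highest score of 0.8 in control compared with 0.2 after IL-4, and its log2 ratio was -1.62 (-2.12 to -1.21). In control it belonged to a 78 bp transcript of intron 1 (chromosome 2, 11515767 to 11515844) and after IL-4 to a 493 bp transcript at another place in that intron, nearer the start. Tpi1, the gene for triosephosphate isomerase, had 0.8 in control and 0.3 after IL-4 in intron 1 (-1.04, -1.39 to -0.72). As at Gapdh, the transcript was longer after IL-4 (577 bp and 742 bp). Gpi1, which encodes glucose phosphate isomerase, had 0.6 and 0.5 at its promoter (0.12, -0.15 to 0.38). Bpgm, the gene for bisphosphoglycerate mutase, had 0.2 and 0.3 from transcripts at its promoter on the opposite strand (0.96, 0.38 to 1.60).

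Slc2a1, which encodes the glucose transporter GLUT1, had a highest score on the gene strand of 0.2 in control and 0.5 after IL-4 (centred log2 ratio 1.67, rounding range 1.20 to 2.22). Named transcripts numbered 3 in control against 7 in the IL-4 library. The control value by name (0.3) lay on the opposite strand in the promoter. Hif1a, a transcription factor that activates glycolytic genes, had 0.3 and 0.6 on the gene strand (1.35, 1.00 to 1.73). By name it had 0.4 and 0.6 (0.96, 0.67 to 1.27), short of 2-fold. Eno1, the gene for enolase, had 0.1 and 0.2 on its strand (1.35, 0.35 to 2.67), at different places and with a wide rounding range. The transcripts on its strand carry the name Gm5506. By name Eno1 had 0.4 in both libraries, from transcripts at its promoter on the opposite strand (0.38, 0.02 to 0.74). Adpgk, which encodes an ADP-dependent glucokinase, had 0.8 and 1.1 in exon 1 (0.81, 0.65 to 0.96), short of 2-fold over its whole range.

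**Figure D5:**
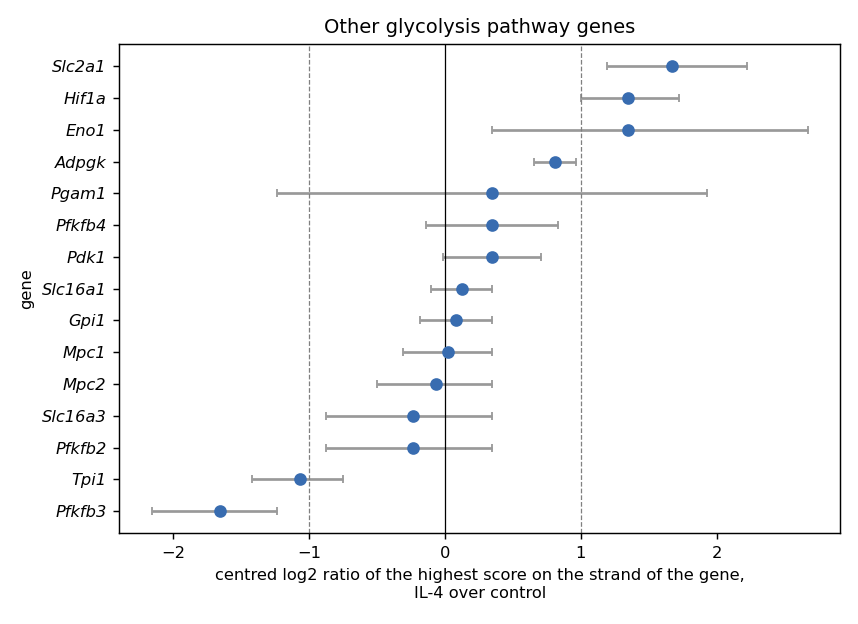
Centred log2 ratio of the highest score on the gene strand (horizontal axis) for the 15 other pathway genes with a value in both libraries; bars show the rounding range and dashed lines mark 2-fold. Slc2a1 (1.67) and Pfkfb3 (-1.65) lie at the ends.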

How the data were processed

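GRO-seq libraries of control and IL-4-treated BMDMs (1 each) were analysed from their lists of called transcripts. The authors aligned reads with BWA at default settings to mm10 (GRCm38) and called transcripts per library with HOMER in GRO-seq mode. ENCODE artifact regions were removed in the pipeline shared with their ChIP-seq data. The submitters' processing notes name BWA 0.7.10, SAMtools 0.1.19 and HOMER 4.2. The deposited score of a transcript is rounded to 1 decimal, and its scaling and the depth are not given in the sources used here, so intervals that need counts were not computed. Transcripts were called separately in each library, so a difference in length or number can come from the calling, and a lower score can go with a longer call.

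Gene values, ratios and overlaps (at least 1 bp, same strand) were computed with Python 3.11.15, pandas 2.3.3, numpy 2.4.6 and matplotlib 3.10.9. The ratio code was tested on simulated data without noise and without genes of low control score. That test does not cover low values such as those of Hk2 and Pfkp. HOMER names a transcript for the nearest promoter. Transcripts were therefore also assigned by overlap with the GENCODE M21 gene, matched by Ensembl identifier. Alternatives were the summed score, score times length, the transcript nearest the TSS, the gene strand, no repeats, other scalings and other thresholds. Start sites and upstream sequences were from RefSeq (GRCm38.p6), which held all 10 genes. The members, the pathway list and the definitions were chosen with earlier results of these data known. The genes named were the 10 members, pathway genes 2-fold changed over their rounding range or the only isozyme of a step found, and neighbours that carry member transcripts. Others named after their values were seen are Slc2a1, Hif1a, Eno1 and Adpgk.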

Additional observations from a re-analysis of the deposited data

How the results depend on the processing

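No paired analysis was possible because each condition is 1 library, and no replicate could be left out. Of the 9 genes, Pfkl and Aldoa kept the direction of the main ratio under all 9 alternatives. The ratio of Hk1 (-1.43) changed sign with the summed score (0.29), with score times length by name (1.06) and with score times length on the gene strand (0.84). The number of genes at least 2-fold lower, 1 by the highest score, was 0 with the summed score (13.7% of all genes lower), 4 with the transcript nearest the TSS (27.7%), 2 without transcripts that name a repeat (11.3%), 3 without centring (24.3%), 3 when scaled by summed score times length (24.6%) and 3 at a threshold of 1.5-fold (24.4%). The higher counts thus came with higher shares over all genes. Without centring, the median of all genes was -0.38, and 6 of the 9 members lay below 0 and none above it. Scaled by summed score times length, all 9 lay below 0, with a median of -0.82 against -0.46 for all genes. The number at least 2-fold higher, 0 by the highest score, was 1 with score times length by name (17.2% of all genes higher), 1 with the highest score on the gene strand (8.25%) and 1 with score times length on the gene strand (16.7%). Among the other pathway genes against 2 lower and 1 higher, the summed score gave 4 lower and 3 higher (13.7% and 13.6% of all genes), no centring gave 3 lower and 0 higher (24.3% and 5.98%), and the gene strand gave 2 lower and 3 higher (8.43% and 8.25%). The causes were not tested. The matched places (median 0.32 and 0.19 in the alternatives), the ratio of covered bases (1.66 with scores of at least 0.3) and the number of genes with a start-site transcript in both libraries (7 within 300 bp, 8 within 2000 bp) kept their directions. Scores near the lowest printed value and the unknown depth limit what can be said of Hk2, Pfkp, Eno1 and Pgk1.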
